A study of Mus musculus with 5 samples.

Results

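Polyamine synthesis starts with ornithine decarboxylase, and the 5 genes described here encode that enzyme and the proteins that set its stability: Odc1, the antizymes Oaz1 and Oaz2, and the antizyme inhibitors Azin1 and Azin2. They were chosen by gene symbol, and all 5 were found among the 18783 genes of the deposited differential expression table. A further antizyme, Oaz3, which is known from the testis, is not among the rows used.

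Ornithine decarboxylase turns ornithine into putrescine, the parent of spermidine and spermine, and works as a homodimer. Antizymes bind the single subunit, keep it from pairing and hand it to the 26S proteasome without ubiquitin, and they also restrain polyamine uptake. Antizyme inhibitors resemble the decarboxylase but do not make putrescine, and they bind antizyme more tightly than the enzyme does, which frees it. Full-length antizyme is made only when the ribosome shifts its reading frame at a stop codon, and polyamines favour that shift. DFMO (difluoromethylornithine) inactivates the decarboxylase protein irreversibly.

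RNA came from primary astrocyte cultures of C57BL/6 pups taken at P0-P1 and harvested on day 12 in vitro. Control cultures were untreated (2 libraries), Aβ cultures received 1 µM amyloid-β peptide from day 7 for 5 days (2 libraries), and Aβ+DFMO cultures received 1 µM Aβ and 50 µM DFMO over the same time (1 library). No DFMO-only group is among these samples, so DFMO is seen here only on top of Aβ. The labels do not say whether the libraries of a group are separate cultures. The p-values therefore measure only the spread between libraries of a group, which may be technical. The single Aβ+DFMO library gives no spread of its own.

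The Aβ+DFMO library held 4825677 reads, 84.4% of them fully within exons. Totals of the other 4 libraries were not used here, because the names of those rows match no single label. Astrocyte markers were abundant, with a summed normalized mean over 10 genes of 166022 in Control, 165459 in Aβ and 130498 in Aβ+DFMO. Markers of other cells were present too. Those of the oligodendrocyte lineage summed to 47032, 46413 and 25458, those of microglia and macrophages to 21855, 15377 and 9335, and those of neurons to 20276, 19860 and 23117, in the same order. Fibroblast, meningeal and mural markers summed to 79755, 82179 and 95858. In Control, Map2 (10827) and Stmn2 (6792) held most of the neuronal sum. Tubb3 stood at 1960, while Snap25 (50.7), Syt1 (83.9) and Gad1 (30.3) were scarce. Acta2 (65706) held most of the fibroblast, meningeal and mural sum in Control. Col1a1 stood at 7986, while Dcn (78.1) and Lum (18.2) were scarce. The neuronal sum and the fibroblast, meningeal and mural sum therefore do not give the abundance of those cells. The 3 measured endothelial markers summed to 183, 204 and 134. In Aβ+DFMO against Aβ, 4 of 10 astrocyte, 5 of 12 microglial and 8 of 10 oligodendrocyte markers fell, 2 of 7 fibroblast, meningeal and mural markers rose, and 1 of 8 neuronal markers rose and 1 fell, beside 5.18% of all genes lower and 4.0% higher. With the GC trend described below removed, 4 astrocyte, 2 microglial and 3 oligodendrocyte markers passed as lower, 3 fibroblast, meningeal and mural markers as higher, and 1 neuronal marker as higher and none as lower. With that trend removed, 0.732% of all genes passed as lower and 0.835% as higher. In Aβ against Control 6 of the 12 microglial markers fell, where 0.287% of all genes passed in either direction. Among the defining markers, Rbfox3 and Slc17a7 of neurons and Pecam1 and Cldn5 of endothelium were not in the rows used. The part of these shifts in the values below was not tested. In such bulk samples fewer cells of a type and less RNA per cell cannot be told apart.

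The frameshift sites of the antizyme mRNAs are shown because they are the control point of the pathway that a transcript level cannot read, and because they show how alike Oaz1 and its pseudogene Oaz1-ps are. The sequences run 5′ to 3′ from the GENCODE transcripts of GRCm38, with the stop codon of the first reading frame in capitals.
Oaz1: cggtggtgctccTGAtgtccctcacc
Oaz1-ps: cggtggtgctccTGAtgtccctcacc
Oaz2: ctgtggtgctccTGAtgcccctcacc
They lie at chr10:80828283-80828308 on the plus strand, chr17:17345923-17345948 on the minus strand and chr9:65686260-65686285 on the plus strand. The stop codon follows 68 codons in Oaz1 and in the pseudogene, and 32 codons in Oaz2. The printed stretch is the same in Oaz1 and Oaz1-ps. Over their whole aligned length 684 of 685 positions of Oaz1-ps were identical to Oaz1.

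The first comparison asked whether Aβ alters this control, and none of the 5 genes passed an adjusted p under 0.05, where 0.287% of all genes did (54 of 18783) and 0.413% of those whose Aβ mean was 1000 or more. None passed with the GC trend described below taken out, where 0.291% did. The authors' normalized mean of Odc1 was 8744 in Control and 9293 in Aβ. The authors' deposited table gave Odc1 a log2 ratio of 0.09, and the interval of that ratio ran from −0.07 to 0.25. Here and below the interval is the 95% interval from an implied standard error, the size of the log2 ratio divided by the normal deviate of its two-sided p. A rise of more than 1.19-fold therefore lay outside the interval for Odc1, as did a fall below 0.953 of Control.

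The inhibitors and antizymes were as close to Control. Azin1 had an authors' mean of 9275 in Control and 9176 in Aβ. Azin2, the least abundant of the 5, had 862 and 788. For the antizymes the authors' means were 3556 and 3662 for Oaz1 and 3649 and 3730 for Oaz2. The authors' deposited table listed log2 ratios of −0.02 for Azin1 (interval −0.17 to 0.14), −0.13 for Azin2 (−0.39 to 0.13), 0.04 for Oaz1 (−0.15 to 0.23) and 0.03 for Oaz2 (−0.14 to 0.21). The unadjusted p-values of the 5 genes lay between 0.274 and 0.841 in the authors' deposited table, while 324 genes (1.72%) had an unadjusted p under 0.05. A p above the threshold does not show that a gene was unchanged, and the intervals give the sizes that remain possible.

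**Figure D1:**
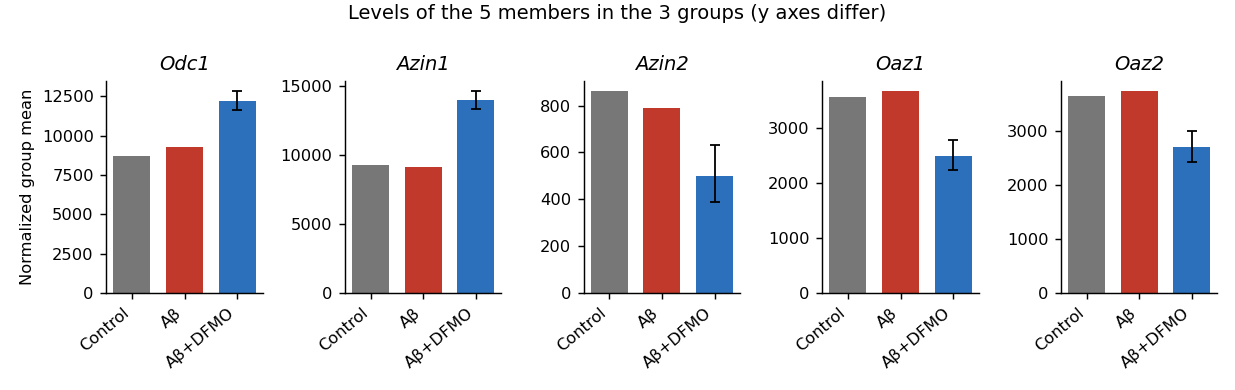
Authors' normalized group means (y axis, linear from 0, a scale of its own in each panel) of the 5 genes in Control, Aβ and Aβ+DFMO. Bars are group means without a replicate error; the black line on the Aβ+DFMO bar is the 95% Poisson interval of the reads behind it. Control and Aβ bars are close for each gene, whereas Odc1 and Azin1 are higher and Azin2, Oaz1 and Oaz2 lower in Aβ+DFMO.

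The second comparison asked what DFMO changes in Aβ-treated cultures, and by the deposited values Odc1 and Azin1 rose and the antizymes Oaz1 and Oaz2 fell, while the inhibitor Azin2 was lower without passing the threshold. Only the call of Odc1 held when a trend with GC content, described below, was removed. That is 4 of 5 past an adjusted p under 0.05, where 9.18% of all genes passed (1724 of 18783). Of the 6299 genes whose Aβ mean was 1000 or more, a range that holds every member except Azin2, 20.6% passed (9.59% higher and 11.0% lower). The single Aβ+DFMO library was assumed by the authors' model to vary like the others.

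Odc1 had an authors' mean of 12235 in Aβ+DFMO, against 9293 in Aβ and 8744 in Control. One read of this library was worth 7.45 normalized units, so about 1642 reads lay behind the Odc1 value, with a Poisson interval of 1563 to 1723 that covers counting error only. The authors' deposited table gave a log2 ratio of 0.40 (1.32-fold, interval 1.14 to 1.52, adjusted p = 0.00415). The counting interval of the Odc1 mean, 11650 to 12841, lay above the means of both other groups.

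Azin1 had the highest deposited log2 ratio of the 5, and with the GC trend removed it lay below Odc1 (0.25 against 0.53). Its authors' mean was 14001 in Aβ+DFMO, from about 1879 reads, against 9176 in Aβ. In the authors' deposited table this was a log2 ratio of 0.61 (1.53-fold, interval 1.33 to 1.75, adjusted p = 2.69e-07). Azin2, the inhibitor known from nervous tissue and testis, had an authors' mean of 499 from about 67.0 reads. The counting interval of 387 to 634 lay below the Aβ mean of 788. With the GC trend removed, Azin2 had a log2 ratio of −0.11 against Aβ (interval −0.58 to 0.35). Its log2 ratio in the authors' deposited table was −0.66 (interval −1.12 to −0.20, adjusted p = 0.055), so the antizyme inhibitors differed in the sign of their log2 ratios.

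The antizymes were lower in Aβ+DFMO by the deposited values, and neither passed once the GC trend was removed (adjusted p = 0.90 for Oaz1 and 0.391 for Oaz2, from a Wald test with the implied standard error). Oaz1 had an authors' mean of 2490 in Aβ+DFMO, from about 334 reads, against 3662 in Aβ. It fell to 0.68 of Aβ in the authors' deposited table (log2 ratio −0.56, interval −0.83 to −0.28, adjusted p = 0.00269). Oaz2 had an authors' mean of 2697, from about 362 reads, against 3730 in Aβ. It fell to 0.723 of Aβ in the authors' deposited table (log2 ratio −0.47, interval −0.73 to −0.21, adjusted p = 0.00878).

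The level of Odc1 relative to the antizymes moved accordingly. The ratio of the Odc1 mean to the Oaz1 mean was 2.46 in Control, 2.54 in Aβ and 4.91 in Aβ+DFMO, and that to Oaz2 was 2.40, 2.49 and 4.54. For Azin1 the ratio to Oaz1 was 2.61, 2.51 and 5.62. On the log2 scale the change from Aβ to Aβ+DFMO was 0.95 for Odc1 to Oaz1, 0.86 for Odc1 to Oaz2 and 1.17 for Azin1 to Oaz1. With the GC trend removed these were 0.69, 0.83 and 0.41. These ratios are not corrected for transcript length, so only their change between groups can be read, and the change was not tested. Azin1 to Odc1 stayed between 0.987 and 1.14 in the 3 groups. Against Control, where the authors' table holds no test, the log2 ratios of the Aβ+DFMO means were 0.48 for Odc1, 0.59 for Azin1, −0.79 for Azin2, −0.51 for Oaz1 and −0.44 for Oaz2.

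**Figure D2:**
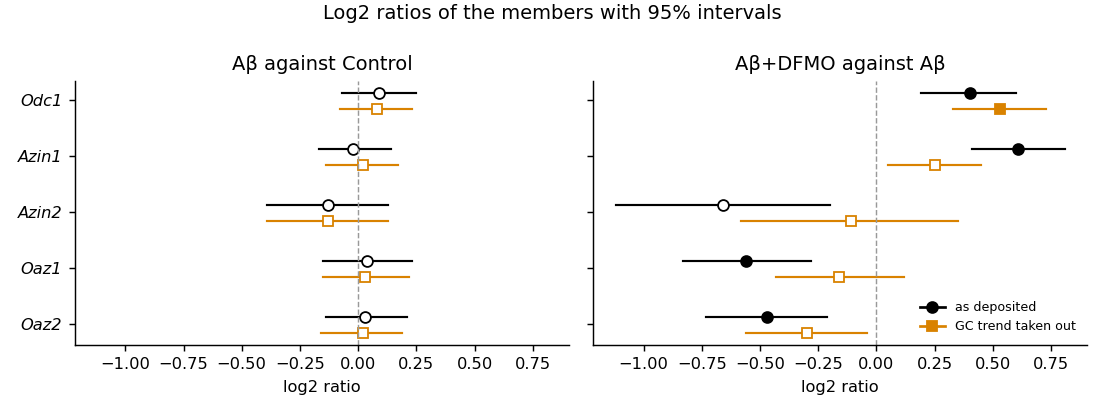
Log2 ratios (x axis) of the 5 genes for Aβ against Control (left) and Aβ+DFMO against Aβ (right). Black circles are the authors' deposited values and orange squares the values with the GC trend taken out, lines are 95% intervals from the implied standard errors, and filled symbols passed an adjusted p under 0.05. On the left every interval crosses 0; on the right only Odc1 is filled in both colours.

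The log2 ratios of Aβ+DFMO against Aβ were lower at higher GC content of the transcript, and the 5 genes lie at different points of that trend. Over 11739 genes whose Aβ mean was 200 or more, Spearman's rho between log2 ratio and GC content was −0.71, and 0.12 for Aβ against Control. It is a description across genes, which share libraries and are no replicates. GC content was 39.3% for Azin1, 52.4% for Odc1, 53.2% for Oaz2, 56.9% for Oaz1 and 59.7% for Azin2. With the trend taken out, Odc1 was the only one of the 5 that passed (log2 ratio 0.53, interval 0.33 to 0.73, adjusted p = 9.25e-05), where 1.57% of all genes did (0.835% higher and 0.732% lower) and 3.67% of those whose Aβ mean was 1000 or more. Azin1 was then at 0.25 (interval 0.05 to 0.45, adjusted p = 0.284), Oaz2 at −0.30 (−0.56 to −0.04, adjusted p = 0.391), Oaz1 at −0.16 (−0.43 to 0.12, adjusted p = 0.90) and Azin2 at −0.11 (−0.58 to 0.35, adjusted p = 0.982). What lies behind the trend was not tested.

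Genes of like GC content show where each member stood. Among 626 genes whose Aβ mean was 1000 or more and a GC content within 1 percentage point of Odc1, the median log2 ratio in the authors' deposited table was −0.13, and 9 genes (1.44%) lay above Odc1. For Azin1 there were 297 such genes with a median of 0.33, of which 113 passed as higher and 7 lay above Azin1. Around Oaz1 the 430 genes had a median of −0.36, 159 passed as lower and 89 (20.7%) lay below it. Around Oaz2 the 649 genes had a median of −0.18 and 69 (10.6%) lay below it. The 199 genes around Azin2 had a median of −0.55, and 67 lay below it. Odc1 and Azin1 were thus near the top of their GC neighbours, Oaz2 in the lower part, and Oaz1 and Azin2 within the bulk.

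**Figure D3:**
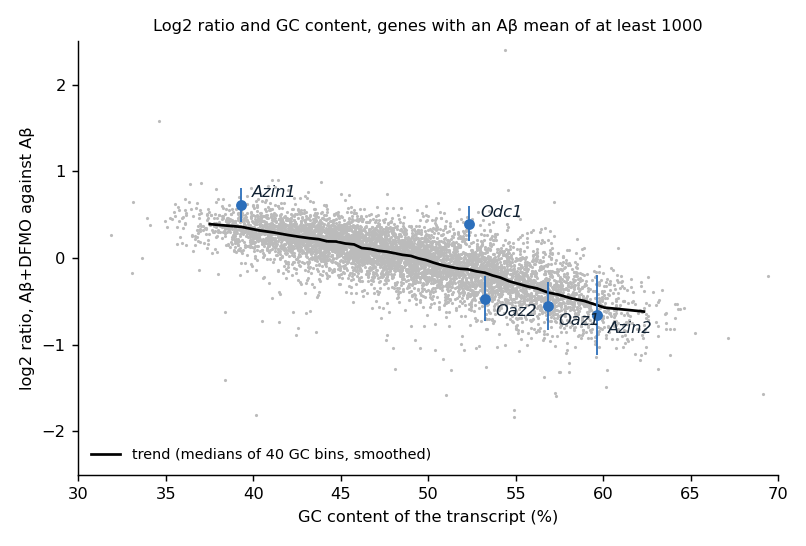
Log2 ratio of Aβ+DFMO against Aβ (y axis) by GC content of the transcript in percent (x axis). Grey points are genes whose Aβ mean was 1000 or more (2 lie outside the axes), the black line is the trend over genes at 200 or more, and blue points with 95% intervals are the 5 genes. Azin2 and Oaz1 lie near the line and Odc1 lies above it.

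Part of the reads of Odc1 and Oaz1 can be placed on other rows of the table. The reads were paired and 75 bases long. In the main Odc1 transcript 650 of the 2134 windows of that length (30.5%) occurred unchanged in a transcript of another gene. For Oaz1 it was 536 of 1001 windows (53.5%), all through Oaz1-ps. For Oaz2 it was 108 of 1770 (6.1%) through Oaz2-ps, for Azin1 285 of 4797 (5.9%) through the antisense gene Gm49077, and for Azin2 none of 1989. These are shares of single windows. A read pair also holds its mate, so the share of pairs may be lower. The handling of shared reads was not given in the sources used here. The Oaz2-ps value in Aβ+DFMO stood for 9.09 reads, which is not whole, so it is no plain count. The read numbers given for Odc1, Azin1, Oaz1 and Oaz2 are rounded and need not be plain counts either. The counting intervals take the value of a row as reads of its own. They leave out any error in placing shared reads.

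Of the genes that share windows with Odc1, 12 have a row in the table, most of them annotated as processed pseudogenes. Their authors' means summed to 4050 in Control, 4195 in Aβ and 5837 in Aβ+DFMO, which is 31.7%, 31.1% and 32.3% of the sum with Odc1. The most abundant was Gm7993, with authors' means of 1542, 1568 and 1993. In the authors' deposited table its log2 ratio of Aβ+DFMO against Aβ was 0.35 (adjusted p = 0.174), and none of the 12 rows passed, although 10 of them lay higher in Aβ+DFMO, with a median of 0.48. Of the windows of these rows only 0.1% (Gm7450) to 26.3% (Gm17709) occur in Odc1, and 7.6% for the protein-coding AW146154. Their sums may therefore hold many reads that do not come from Odc1. Summed with these whole rows, Odc1 was at 13488 in Aβ and 18071 in Aβ+DFMO. That is a log2 ratio of 0.42 in place of 0.40, without a test. AW146154 and Gm15470 overlap each other on opposite strands, so reads there cannot be told apart without strand.

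Oaz1-ps took a larger share. Its authors' means were 2752 in Control, 2723 in Aβ and 1490 in Aβ+DFMO, which is 43.6%, 42.6% and 37.4% of its sum with Oaz1. In the authors' deposited table Oaz1-ps fell by 0.87 on the log2 scale in Aβ+DFMO (implied standard error 0.167, adjusted p = 2.32e-05), and with the GC trend taken out it did not pass (−0.32, adjusted p = 0.564). Oaz1 and Oaz1-ps together were at 6308, 6384 and 3980, a log2 ratio of −0.68 for Aβ+DFMO against Aβ where the Oaz1 row alone gave −0.56. Oaz2-ps was scarce, with authors' means of 106, 98.3 and 67.7.

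**Figure D4:**
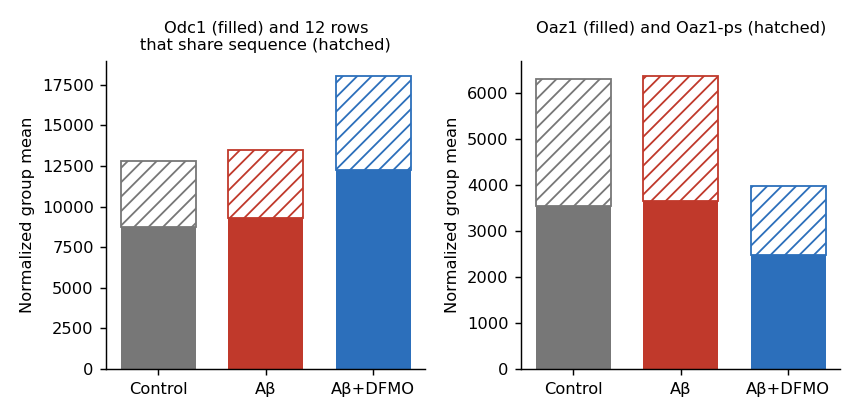
Authors' normalized group means (y axis, linear from 0) of Odc1 with the 12 rows that share 75-base windows with it (left) and of Oaz1 with Oaz1-ps (right), stacked, for Control, Aβ and Aβ+DFMO. Hatched parts are the whole other rows, at 31.1% to 32.3% of the Odc1 stack and 37.4% to 43.6% of the Oaz1 stack. On the left most windows of these rows do not occur in Odc1. No error is drawn because single libraries were not used.

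Levels of different genes can be compared only per length of transcript. Per kilobase of the main transcript, the Control means were 3960 for Odc1, 3320 for Oaz1, 1980 for Oaz2, 1904 for Azin1 and 418 for Azin2. The order was the same in Aβ, at 4209, 3419, 2024, 1884 and 382. In Aβ+DFMO Azin1, at 2874 per kilobase, came after Odc1 (5541) and before Oaz1 (2325), Oaz2 (1463) and Azin2 (242). Its counting interval of 2746 to 3007 per kilobase did not overlap that of Oaz1, 2082 to 2588, and both cover counting error only. The GC trend is not removed from these levels. In log2 ratio against Aβ it was 0.36 at the GC content of Azin1 and −0.40 at that of Oaz1. Whether their order changed apart from that trend was not tested. In Control and Aβ no spread between libraries is given, so neighbours in the order were not tested. With the rows that share windows with them added whole, Odc1 was at 5794 and Oaz1 at 5890 per kilobase in Control. That was the reverse of their order alone. In Aβ+DFMO they were at 8185 and 3716. Most windows of the rows added to Odc1 do not occur in it, so its sums may hold reads of other origin. Oaz1 with Oaz1-ps then also lay above Azin1 (2874) in Aβ+DFMO, again the reverse of the order alone.

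In GRCm38 the plus strand of chromosome 12 carries Odc1 between 17544794 and 17551505, and the main transcript has 12 exons and 2208 bases. Azin1 lies on chromosome 15 at 38487427 to 38519266 and Azin2 on chromosome 4 at 128930233 to 128962442, both on the minus strand. Oaz1 lies on chromosome 10 at 80826656 to 80829290 and Oaz2 on chromosome 9 at 65668001 to 65690300, both on the plus strand. The annotated coding sequences of Odc1 and Azin1 were identical at 58.8% of aligned positions and those of Odc1 and Azin2 at 58.3%, and no 75-base window is shared between these 3.

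RefSeq promoter windows, from 250 bases before to 50 after a start site, matched 3 of the 5 genes. All 3 are printed. Capitals mark matches of the GC box GGGCGG, the CCAAT box CCAAT and the TATA box TATAAA on either strand. They come from GRCm38.p6, at chr12:17544623-17544922, chr10:80826406-80826705 and chr9:65676298-65676597, each on the plus strand.
Odc1: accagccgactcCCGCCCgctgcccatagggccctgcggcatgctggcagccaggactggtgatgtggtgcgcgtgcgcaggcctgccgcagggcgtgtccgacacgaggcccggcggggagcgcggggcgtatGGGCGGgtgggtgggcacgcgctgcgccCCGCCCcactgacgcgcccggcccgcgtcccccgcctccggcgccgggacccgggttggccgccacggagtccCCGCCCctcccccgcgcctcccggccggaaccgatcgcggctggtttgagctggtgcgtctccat
Oaz1: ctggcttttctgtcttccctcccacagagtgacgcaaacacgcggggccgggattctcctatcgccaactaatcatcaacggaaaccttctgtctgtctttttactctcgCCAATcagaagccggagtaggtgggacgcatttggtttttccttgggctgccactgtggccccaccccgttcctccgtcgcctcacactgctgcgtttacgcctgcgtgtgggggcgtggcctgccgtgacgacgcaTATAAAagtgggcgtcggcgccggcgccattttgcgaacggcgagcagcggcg
Oaz2: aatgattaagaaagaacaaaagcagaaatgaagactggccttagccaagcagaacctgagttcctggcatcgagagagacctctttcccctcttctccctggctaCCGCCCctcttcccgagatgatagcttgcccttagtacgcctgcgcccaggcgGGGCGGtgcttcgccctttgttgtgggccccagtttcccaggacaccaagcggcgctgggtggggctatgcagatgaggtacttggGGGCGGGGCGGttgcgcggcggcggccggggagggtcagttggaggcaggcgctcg
The Odc1 window and the Oaz2 window each held 4 GC boxes, which 35.7% of the 32851 RefSeq windows hold at least once, and no CCAAT or TATA box. Whether such motifs bear on the log2 ratios was not tested. The Oaz1 window held 1 TATA box (in 13.6% of all windows) and 1 CCAAT box (37.4%) and no GC box. The E-box CACGTG, the binding motif of MYC and its partners, was in none of the 3 windows and in 7.15% of all. The cAMP response element TGACGTCA was in none of them and in 1.79% of all. Sequence outside the windows, introns included, was not searched, so sites there would be missed. The Oaz2 window lies inside the gene, downstream of the annotated gene start at 65668001. Its motifs are therefore those of an internal start site only. GC content was 78.0% in the Odc1 window, 60.0% in that of Oaz1, 61.7% in that of Oaz2 and 52.7% in the median of all.

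Of the other polyamine genes, those on either side of Odc1 in the pathway are given next, in lists that were chosen with earlier results known. No gene of the 75 measured passed in Aβ, where 0.287% of all genes did. By p-value the nearest in each list in the authors' deposited table were Atp13a3 (log2 ratio −0.22, unadjusted p = 0.00557), Mri1 (−0.26), Eif5a2 (−0.13), Psmb3 (0.12), Ccnd1 (−0.07), Smox (−0.10) and Mxd1 (0.08). List medians in Aβ lay between −0.07 and 0.03, beside 0.00 for all genes.

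In Aβ+DFMO against Aβ, 12 of the 75 genes passed, 4 higher and 8 lower, beside 4.0% higher and 5.18% lower among all genes. Among genes whose Aβ mean was 1000 or more, 9.59% were higher and 11.0% lower (20.6% in all). Each of the 12 except Smox lies in that range. Of 12 genes of polyamine synthesis and methionine salvage 2 rose and none fell, and the median log2 ratio was 0.23, beside 0.01 for all genes. Amd1, the decarboxylase that supplies aminopropyl groups to spermidine and spermine, had authors' means of 2545 in Control, 2578 in Aβ and 4828 in Aβ+DFMO. It rose by 0.91 on the log2 scale in the authors' deposited table (adjusted p = 3.06e-10) and also passed once the GC trend was removed (0.62, adjusted p = 0.000198). Of its 75-base windows 81.9% occur in other genes. Among them Amd2 did not pass (0.16), whereas the pseudogene Amd-ps3 had a log2 ratio of 0.79. Summed with both rows, Amd1 had a log2 ratio of 0.79, without a test. Mtap, which salvages the methylthioadenosine left by spermidine and spermine synthesis, rose by 0.44 in the authors' deposited table but did not pass with the trend taken out (0.30, adjusted p = 0.445). Spermidine synthase Srm (−0.27) and spermine synthase Sms (0.32), both from the authors' deposited table, did not pass.

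Of 4 genes of polyamine acetylation and oxidation only Smox passed. Smox, the spermine oxidase, had authors' means of 891 in Control, 831 in Aβ and 373 in Aβ+DFMO. It fell by 1.16 on the log2 scale in the authors' deposited table (adjusted p = 0.00047) and by 0.90 with the GC trend taken out (adjusted p = 0.0348). Sat1, the inducible acetyltransferase (−0.14), and the acetylpolyamine oxidase Paox (−0.35), both from the authors' deposited table, did not pass.

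Transport genes moved both ways, with 2 of 8 higher and 2 lower. In the authors' deposited table Atp13a3 rose by 0.52 and Cav1 by 0.54, and Atp13a2, a lysosomal polyamine exporter, fell by 1.10 and the glypican Gpc1 by 0.68. None of these 4 passed once the GC trend was removed. Of the 4 genes of the hypusine pathway, which uses spermidine to modify the translation factor eIF5A, Eif5a itself fell by 0.37 in the authors' deposited table (adjusted p = 0.0291) and did not pass with the trend taken out (−0.09).

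Among the genes that act on ODC1 from outside, 4 of 32 subunits of the 26S proteasome fell and none rose. Of all genes 5.18% fell and 4.0% rose. Of those whose Aβ mean was 1000 or more, a range that holds every subunit except Adrm1, 11.0% fell and 9.59% rose. The subunit count is thus near the share among abundant genes. These were Psmb5 (−0.84), Psmd3 (−0.53), Psmd4 (−0.47) and Psmd8 (−0.39) in the authors' deposited table, and the median of all 32 was −0.02. None of the 32 passed with the GC trend taken out. None of the 10 genes of the MYC network, whose lead member Myc is a known activator of Odc1, passed, although Mnt and Mxd4 did after centring or with p-values adjusted over genes at 200 or more. Myc had authors' means of 946, 939 and 745 (log2 ratio −0.33 for Aβ+DFMO against Aβ, adjusted p = 0.397, in the authors' deposited table), and the smallest p in that list was that of Mnt (−0.69, adjusted p = 0.0533). None of the 5 genes of the last list passed, which holds the stabiliser Nqo1 beside further antizyme-binding proteins, and the smallest p was that of Ccnd1 (0.16, adjusted p = 0.275). Once the GC trend was removed, 2 of the 75 genes passed, Amd1 higher and Smox lower. That count is near the shares of 1.57% of all genes and 3.67% of those whose Aβ mean was 1000 or more.

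**Figure D5:**
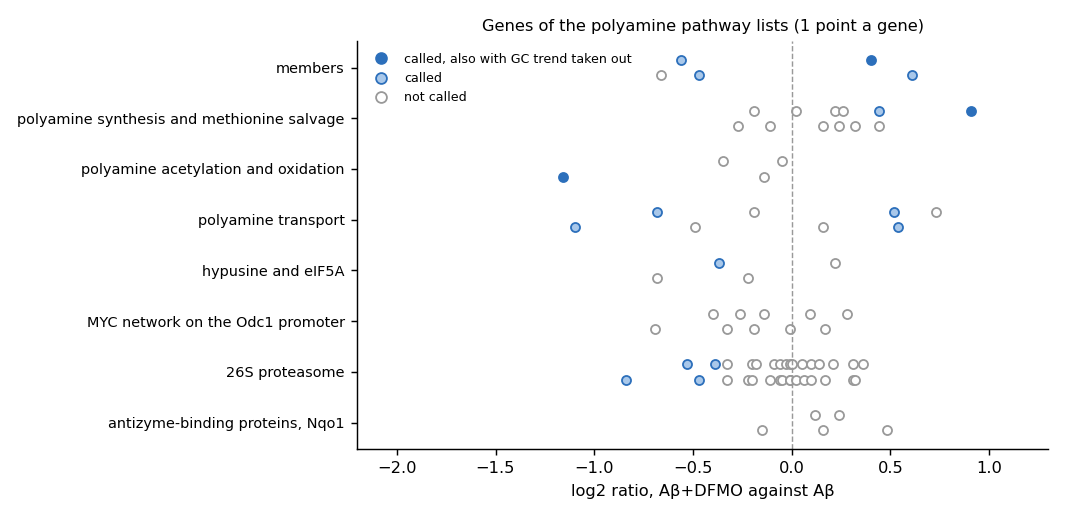
Log2 ratio of Aβ+DFMO against Aβ (x axis) for the 5 members and each measured gene of the 7 pathway lists with measured genes (rows, 1 point a gene, offset vertically for legibility). Open points did not pass, light points passed in the authors' deposited table, and dark points passed there and with the GC trend taken out. The dark points are Odc1, Amd1 and Smox.

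Genes with the most similar pair of log2 ratios were named by distance over the 2 comparisons, among the 6299 genes whose Aβ mean was 1000 or more. Nearest to Odc1 were Lin52 (0.10 and 0.40 in the authors' deposited table), Pmepa1 (0.10 and 0.39) and Aspm (0.09 and 0.38). Nearest to Azin1 were Nxt2 (−0.01 and 0.62), mt-Co2 (−0.01 and 0.62) and Smc4 (0.00 and 0.61) in the authors' deposited table. Nearest to Oaz1 were Slc48a1 (0.05 and −0.54), Actr1b (0.03 and −0.55) and Cope (0.03 and −0.56) in the authors' deposited table. Within a distance of 0.1 there were 345 genes around Odc1, 96 around Azin1 and 271 around Oaz1, so such a pair of values is common. The likeness rests on 3 group means that share the Aβ group.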

How the data were processed

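RNA of 5 libraries was measured. Per the submitters' processing notes STAR 2.7.3a, Partek, DESeq2 and FastQC were used, and the builds mm10 and GRCm39 are named with no role. Counting, annotation and filters were not given in the sources used here. The authors deposited group means as a normalized signal (least-squares means, per the file headers), the ratio and log2 ratio of these means, and DESeq2 p-values with their adjusted p-values, which were checked to be Benjamini-Hochberg values over 18783 genes. The authors also deposited read totals per library and the percent of reads in exons; 4 libraries there match no single label and were not used. No test was refitted, since single libraries have no column. The p-values are the authors', and the implied standard errors assume that they are normal (Wald) p-values.

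The 5 genes and all lists were chosen with earlier results of these data known. A gene was called at an adjusted p under 0.05. Named genes are the 5 members, their pseudogenes, called genes of each list (up to 6 by p, or the smallest p where none was called), Amd1, Srm, Sms, Sat1, Smox, Paox and Myc, and the 3 nearest genes of Odc1, Azin1 and Oaz1. Rows that share sequence, such as Gm7993, were added after the values were seen.

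Length and GC content came from the longest protein-coding GENCODE M21 transcript, or the longest where a gene has none (98.9% of genes matched). The GC trend was the median log2 ratio in 40 GC bins of genes whose Aβ mean was 200 or more, smoothed over neighbouring bins, joined by lines and subtracted before a Wald test with the implied standard error. It was tested on simulated data. Shared windows were exact 75-base matches on either strand; gaps under 10 bases in the antizyme models were filled from other transcripts of the gene. The worth of 1 read (7.45 units) was read from the low values of the Aβ+DFMO column, of which 81.1% were whole within 0.05 of a read; this is too few to recover counts. Python 3.11.15, scipy 1.17.1 and Biopython 1.88 were used.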

Additional observations from a re-analysis of the deposited data

How the results depend on the processing

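In Aβ against Control, 0 of the 5 genes and 0 of the 75 pathway genes passed by the authors' DESeq2 p-values, and likewise under each alternative tried, with a Wald test on the implied standard error where the ratio itself was changed: centring on the median of genes whose Aβ mean was 1000 or more, adjusting over genes at 200 or more, an adjusted p under 0.01, the GC trend taken out, and Benjamini-Yekutieli adjustment. At an unadjusted p under 0.05 the 5 genes also numbered 0. In Aβ+DFMO against Aβ, 4 of the 5 genes passed, and with the GC trend taken out 1 did; of the pathway genes 12 passed, 14 after centring, 15 when adjusted over genes at 200 or more, 8 at an adjusted p under 0.01, 7 with Benjamini-Yekutieli adjustment and 2 with the GC trend taken out. Mnt and Mxd4 of the MYC network passed as lower in the first 2 of these alternatives. Over all genes the calls numbered 1724 and, with the trend taken out, 291 (155 higher and 136 lower); the cause was not tested. Oaz2 did not pass with Benjamini-Yekutieli adjustment (adjusted p = 0.0915). Azin2 passed as lower after centring (−0.68, adjusted p = 0.0449) and when adjusted over genes at 200 or more (adjusted p = 0.0353). Summing rows that share reads was added after the data were seen. No paired analysis was possible because the columns are group means that carry no replicate number, and leaving out single replicates was not run for the same reason. The lone Aβ+DFMO library limits each comparison that uses it.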
